A study of Sus scrofa with 6 samples.

Results

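Porcine chondrocytes from growth plate cartilage and from articular cartilage were compared after 10 days in culture. The comparison rests on 2 of the 6 expression arrays of the study, 1 for each culture, and on 5598 genes measured on them. The other 4 arrays hold the 2 native cartilages, growth plate and articular, and the cultures of both at day 20, and serve here to place the day 10 differences. Both cultures were of primary pig cells released with collagenase and carried through a differentiation timed in days. They shared their conditions, which were DMEM/Ham's F12 medium with foetal bovine serum and antibiotics, 37 °C, 5% oxygen and 5% carbon dioxide, with no supplement. Genotype, strain, sex and age of the animals are not given in the sources used here, nor is the number of animals or any pooling of them. With 1 array per group no difference at day 10 has a replicate check and none carries a p-value of its own.

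Growth plate cartilage lengthens growing bones. Its chondrocytes divide in columns, enlarge (hypertrophy), mineralise their matrix and are replaced by bone, under a loop in which Indian hedgehog from prehypertrophic cells raises parathyroid hormone-related protein, which holds hypertrophy back through the PTH1R receptor. Articular chondrocytes make much of the same collagen II and aggrecan matrix but normally do not mineralise it. Chondrocytes of either kind that are grown in a dish can lose their cartilage products and take on those of fibroblasts, a shift called dedifferentiation.

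Values are signals, the linear brightness of a probe set as deposited. Signals under a floor of 36.1 were raised to it before log2 was taken, and a fold whose lower side lay at the floor is a lower bound, written "at least". Differences are growth plate minus articular on the log2 scale. The 2 day 10 arrays were alike in overall level, with median signals of 71.5 and 68.7, with 61.0% and 60.3% of probe sets above the floor, and with a correlation of log2 signals across genes, which are not independent replicates, of r = 0.962. The spread between probe sets of the same gene is the only spread that can be taken within this pair. It holds no variation between cultures, animals or hybridisations. Over the 1486 genes with at least 2 probe sets above the floor, the day 10 log2 difference had a pooled SD of 0.46 between probe sets of a gene. Dim genes differed more often. Of the 1008 genes in the lowest class of mean day 10 signal, under 100, 11.8% were at least 2-fold apart, against 2.04% of the 1274 genes in the highest class.

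The labelled cell type was borne out on both arrays. All 6 chondrocyte markers on the array lay above the floor in both cultures, summing to 33525 in growth plate and to 31515 in articular culture. None of the 10 lymphoid markers was above the floor in either, and of the 12 myeloid markers 2 were in growth plate and 0 in articular cultures, none with a signal over 43.8. Of 5 erythroid markers only HBB, a haemoglobin chain, was above the floor, at 426 and 609.9. Synovial and fibroblast markers had 6 of 9 members above the floor in growth plate and 8 of 9 in articular cultures, with summed signals of 9392 and 14561. Smooth muscle and pericyte markers had 7 and 9 of 9, with sums of 19575 and 22789, most of which is ACTA2, smooth muscle actin, at 14481 and 14768. Its member RGS5, a pericyte regulator of G proteins, had 19.3 in growth plate, under the floor, and 619 in articular culture, at least 17.1-fold lower in growth plate. RGS5 was above the floor on 1 array only and so was not among the 5598 genes. Endothelial markers were above the floor in 5 and 5 of 13 cases, with sums of 968 and 1286. Fewer cells of a type and less RNA per cell cannot be told apart in these bulk samples, and the part of other cells in the differences that follow was not tested.

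At day 10, 35 of the 5598 genes (0.625%) had a growth plate signal 4-fold or more above the articular signal and 28 (0.5%) one 4-fold or more below it, 63 (1.13%) in all. At a 2-fold rule there were 191 (3.41%) higher and 217 (3.88%) lower, 408 (7.29%) in all. The 35 higher genes include mineralisation enzymes and matrix proteins of hypertrophic cartilage, the hedgehog ligand IHH, the transcription factors LEF1 and FOXA2, and the extracellular protease ADAMTS1. The 28 lower genes include the chemokine CCL2, the secreted glycoprotein CHI3L1, the matrix proteins ASPN, THBS2 and COL4A2, the protease PLAU and the growth factor TGFB3. Just inside the 4-fold rule lay BAMBI, 4.04-fold higher, and MMP1, at least 4.12-fold lower. Just outside lay NRSN1, 3.91-fold higher, and MEDAG, 3.79-fold lower. The median difference of all genes was -0.03, and 53.02% of genes were below 0.

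**Figure D1:**
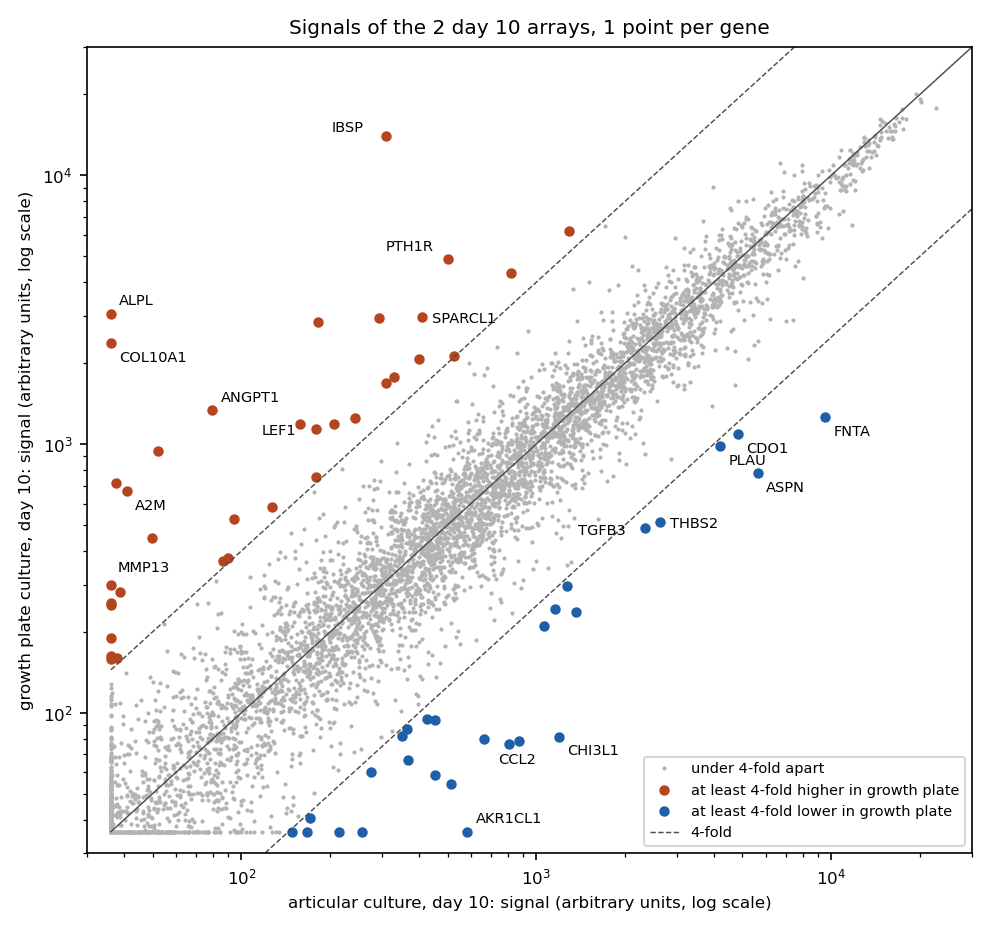
Scatter plot of the signal of 5598 genes in articular culture (x axis) and growth plate culture (y axis) at day 10, floored at 36.1, on log axes, with genes at least 4-fold apart coloured. The 35 coloured points above the diagonal are led by ALPL, COL10A1 and IBSP, and the 28 below it by AKR1CL1, CHI3L1 and CCL2.

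Genes of hypertrophy and mineralisation stood highest in growth plate culture. Of 35 genes listed, 19 were on the array and 16 passed the filter of 2 arrays above the floor. Of these 16, 11 were higher by 2-fold or more, 8 of them by 4-fold or more, and 0 were lower by 2-fold or more, against 3.41% and 3.88% of all genes. Their median difference was 1.97. COL10A1 was above the floor on no articular array, so its direction was fixed by the filter.

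The enzymes and matrix proteins of mineral came first. ALPL, alkaline phosphatase, which supplies phosphate to mineral, had a signal of 3057 in growth plate and 29.9 in articular culture, at least 84.6-fold higher. COL10A1, the collagen of hypertrophic cartilage, had 2375 and 26.4, at least 65.7-fold higher. IBSP, the bone sialoprotein that binds mineral, had 14034 and 309, a 45.5-fold difference. Growth plate signals of ALPL and COL10A1 were higher at day 10 than in native growth plate, where they were 1522 and 1114, while the articular signals stayed under the floor. PHOSPHO1, a phosphatase of matrix vesicles that starts mineral inside them, had 1684 and 309, a 5.46-fold difference. Its growth plate signal was 487 in native tissue and 306 at day 20, so that day 10 was the highest of the 3 growth plate arrays. MMP13, a collagenase of cartilage undergoing mineralisation, had 299.7 and 27.0, at least 8.29-fold higher, though its other probe set lay at the floor on both arrays.

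Other members of the mineral list were close. SPP1, the mineral-binding osteopontin, had 11654 and 10658. ENPP1, which makes the mineral inhibitor pyrophosphate, had 7578 and 4540.2, a log2 difference of 0.74. VEGFA, the vessel growth factor of hypertrophic cartilage, had 1715 and 1282. BGLAP, the osteocalcin of mature osteoblasts, lay under the floor in growth plate at 27.1 and at 64.6 in articular culture. The mineral genes therefore did not all lie on 1 side, and osteocalcin was the only member with a difference below 0. Of 8 osteoblast markers on the array, which overlap this list, 5 were above the floor in growth plate and 4 in articular cultures, with summed signals of 30006 and 11563. Of its defining markers BGLAP was near or under the floor, and the part of osteoblasts in the result was not tested.

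In the hedgehog and parathyroid hormone loop the ligand IHH and the receptor PTH1R were higher in growth plate culture and the hormone PTHLH lower. IHH, the prehypertrophic ligand, had 448 in growth plate and 49.9 in articular culture, an 8.98-fold difference. The growth plate signal of IHH was 118 in native tissue and 82.1 at day 20, and both of those pairs were under 2-fold apart. Its other probe set had a log2 difference of 0.18 at day 10. PTH1R had 4864 and 503, a 9.67-fold difference. PTHLH, the parathyroid hormone-related protein, lay under the floor in growth plate at 28.7 and at 95.4 in articular culture, at least 2.64-fold lower in growth plate. At day 20 both cultures had far higher PTHLH signals, 856 and 756. The 8 measured genes of the loop had a median of -0.22, with 2 members higher by 2-fold or more and 1 lower, where 3.41% and 3.88% of all genes were. With only genes above the floor on all 6 arrays kept, that median was 0.44.

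Transcription factors of cartilage differed in both directions. Of 18 measured, 3 were higher by 2-fold or more and 5 lower, against 3.41% and 3.88% of all genes, with a median of -0.02. FOXA2, a forkhead factor of hypertrophic differentiation, had 2079 and 399, a 5.21-fold difference, while its other probe set lay at the floor. DLX5, a homeobox factor of hypertrophy and bone, had 1164 and 443, a 2.63-fold difference. LEF1, a partner of beta-catenin in WNT signalling, had 1140.2 and 179, a 6.38-fold difference. In native tissue the articular signal of FOXA2 was 18.1 and that of LEF1 28.0, both under the floor, so both genes were above it in articular culture but not in articular cartilage. SOX9, the master factor of chondrocytes, had 125 and 81.0, a log2 difference of 0.62.

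The factors lower in growth plate culture were led by NFIA, a nuclear factor I gene. NFIA had 66.9 in growth plate and 368 in articular culture, a 5.50-fold difference, and its further probe sets lay at the floor. NFIB, of the same family, had 367 and 1000.0, a 2.73-fold difference, and -1.97 on its other probe set. ERG, an ETS factor of the joint surface and of blood vessels, had 258 and 759, a 2.94-fold difference. Among endothelial markers PECAM1, the platelet and endothelial adhesion molecule, had 52.9 and 118, whereas ESAM, an endothelial junction protein, had 206 and 82.9. Further probe sets of both genes, dim ones, had log2 differences of 0.14 for PECAM1 and 0.02 and 0.00 for ESAM, and with probe sets averaged neither gene was 2-fold apart, at -0.51 and 0.45. EPAS1, the hypoxia-inducible factor 2 alpha, had 92.5 and 206. ZNF219, a zinc finger partner of SOX9, had 111 and 285.

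Proteases, inhibitors and a vessel ligand were among the genes higher in growth plate culture outside the mineral list. ADAMTS1, a protease that cuts proteoglycans, had 944 in growth plate and 52.3 in articular culture, an 18.1-fold difference. Its other probe set had a log2 difference of 4.23 beside 4.17. ANGPT1, a ligand of the vessel receptor TEK, had 1338 and 79.8, a 16.8-fold difference, and 4.47 on its other probe set. These 2 genes therefore rest on more than 1 probe set. A2M, a broad protease inhibitor, had 669 and 40.9, a 16.3-fold difference, but its other probe sets had 0.33 and 0.00. TIMP3, an inhibitor of metalloproteases held in the matrix, had 754 and 179.7, a 4.20-fold difference. TIMP3 lay on the other side in native tissue, at 461 in growth plate and 1681 in articular cartilage.

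ENPP2, SHAS2, SPARCL1 and GPX3 were higher by 4-fold or more as well. ENPP2, autotaxin, which makes lysophosphatidic acid, had 2955 and 293, a 10.1-fold difference. SHAS2, the porcine hyaluronan synthase 2, had 1184 and 206, a 5.74-fold difference. SPARCL1, a matricellular relative of osteonectin, had 2978 and 409.8, a 7.27-fold difference, with its other probe set at the floor. At day 20 the articular culture reached a SPARCL1 signal of 3976 against 4635 in growth plate, so the day 10 gap was not there. GPX3, a secreted peroxidase, had 256 and 13.3, at least 7.08-fold higher.

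Several of the higher genes belong to none of the gene lists used here. PDE6C, a phosphodiesterase subunit of cone photoreceptors, had 716 and 37.7, a 19.0-fold difference. EFHD1, a mitochondrial calcium-binding protein, had 2851 and 182, a 15.6-fold difference. TSPAN13, a tetraspanin, had 1185 and 159, a 7.47-fold difference. All 3 were also more than 2-fold higher in native growth plate, with native growth plate signals of 285, 1523 and 1189 against 24.0, 34.4 and 369. WNK4, a kinase that controls ion cotransport, had 282 and 38.7, a 7.27-fold difference. RIMKLB, a ligase that joins glutamate to citrate or aspartate, had 528 and 94.6, a 5.58-fold difference. INPP5A, an inositol phosphate phosphatase, had 6219 and 1294, and MAL, a membrane raft protein, had 4324 and 819. The uncharacterised locus LOC100154873 had 252 and 11.8.

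**Figure D2:**
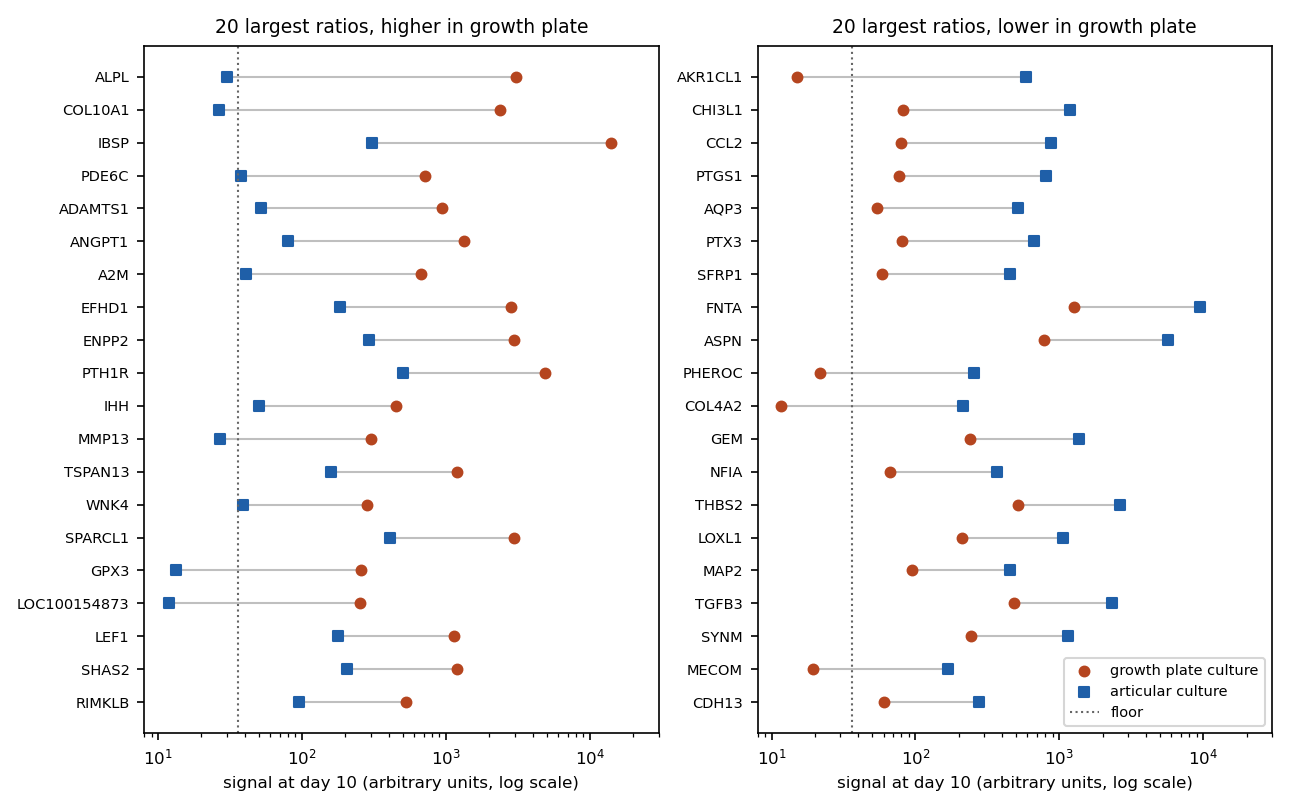
Day 10 signal on a log axis of the 20 genes with the largest ratio each way, growth plate and articular culture joined by a line, with the floor of 36.1 marked. Signals of ALPL, COL10A1, MMP13, GPX3 and LOC100154873 in articular culture, and of AKR1CL1, PHEROC, COL4A2 and MECOM in growth plate culture, lie under the floor.

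Matrix of the fibroblastic kind had more members lower than higher in growth plate culture. Of 26 measured genes, 8 were lower by 2-fold or more and 2 higher, against 3.88% and 3.41% of all genes, with a median of -0.26. Differences were below 0 for 17 of the 26, or 65.4%, where 53.02% of all genes were. The largest difference in the list went the other way, that of SPARCL1, 7.27-fold higher in growth plate. THBS2, a matricellular thrombospondin, had 515 in growth plate and 2617 in articular culture, a 5.08-fold difference. LOXL1, an enzyme that cross-links elastin, had 211 and 1065, a 5.04-fold difference. VCAN, the large proteoglycan of loose tissue, had 136 and 457, a 3.37-fold difference, but a log2 difference of -0.65 with probe sets averaged. The summed synovial and fibroblast markers, which share members with this list, were also lower in growth plate culture, at 9392 against 14561, and their part in the result was not tested. THBS2, LOXL1 and VCAN had higher signals at day 20 than at day 10 in growth plate culture, at 4979, 425 and 1312.

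Collagens of the same group did not differ alike. COL6A2, a chain of the beaded collagen around chondrocytes, had 879 and 2864, a 3.26-fold difference. COL1A2, a chain of the fibrillar collagen of bone and tendon, had 381 and 585, a 1.54-fold difference, and COL3A1, its partner in loose tissue, had 129 and 157. COL5A2, which controls fibril width, was 3.25-fold higher in growth plate, at 119 and 36.5, with 0.02 on its other probe set. TNC, the matricellular tenascin C, had 2875 and 7033, and THY1, a surface marker of fibroblasts, had 2894 and 7416, a 2.56-fold difference. FN1, fibronectin, had 16133 and 14649, and LOX, the collagen cross-linking enzyme, had 1663 and 1488, so both were close on the probe sets used. Dimmer probe sets of FN1 had log2 differences of 1.33, 0.45 and 0.00. A dimmer one of LOX had 77.0 and 4.53, the latter under the floor, a log2 difference of 1.09. COL1A1 was not analysed here.

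Of the small leucine-rich proteoglycans, which bind collagen fibrils and growth factors, 5 of 6 had differences below 0, where 53.02% of all genes did. These are few members, and only ASPN was at least 2-fold apart. ASPN, asporin, had 777 in growth plate and 5643 in articular culture, a 7.26-fold difference. In native tissue it was on the other side, at 541 and 45.1, and by day 20 the growth plate culture had reached 8482 against 10935. LUM, lumican, had 779.6 and 1498, DCN, decorin, had 1703 and 2914, and BGN, biglycan, had 5826 and 9281. Each of these 3 differences was under 2-fold.

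Basement membrane and adhesion genes had more members lower than higher. Of 38 measured, 7 were lower by 2-fold or more and 2 higher, against 3.88% and 3.41% of all genes, with a median of -0.05. COL4A2, a chain of basement membrane collagen, had 11.7 in growth plate, under the floor, and 215 in articular culture, at least 5.95-fold lower. CDH13, a cadherin held by a lipid anchor, had 60.2 and 276, a 4.58-fold difference. VCAM1, an adhesion molecule that binds leukocytes, had 107 and 399, a 3.71-fold difference. COL15A1, LAMB2 and SDC1, a basement membrane collagen, a laminin chain and a syndecan, had log2 differences of -1.33, -1.22 and -1.17. On the other side ITGB3, the beta chain of the vitronectin receptor, had 253 and 70.8, a 3.58-fold difference.

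Several secreted mediators of inflammation were lower in growth plate culture. Of 28 measured, 8 were lower by 2-fold or more, 4 of them by 4-fold or more, and 0 were higher, against 3.88% and 3.41% of all genes. The median was -0.61, but -0.39 with probe sets averaged and 0 without the filter, which adds genes at the floor. CCL2, a chemokine that draws monocytes, had 78.8 in growth plate and 876 in articular culture, an 11.1-fold difference. CHI3L1, a chitinase-like glycoprotein of activated chondrocytes, had 81.6 and 1193, a 14.6-fold difference. Both genes had lower signals in culture than in native tissue on either side, with native signals of 1750.3 and 2855 for CCL2 and 2984 and 15448 for CHI3L1. PTGS1, the constitutive cyclooxygenase, had 76.3 and 810.4, a 10.6-fold difference, with its other probe set at the floor. PTX3, a pattern recognition protein, had 80.2 and 666, an 8.30-fold difference, also with its other probe set at the floor.

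Other members were under the floor in both cultures or close. IL6, LIF and NOS2, an interleukin, a cytokine and the inducible nitric oxide synthase, were at or under the floor on both arrays. PTGS2, the inducible cyclooxygenase, had 382 and 468, and CXCL8, a neutrophil chemokine, had 49.8 and 34.8. TLR2, a receptor for bacterial lipoproteins, had 77.5 and 216, a 2.79-fold difference. SOD2, a mitochondrial superoxide dismutase that NF-kappa B induces, had 542 and 1130.3, a 2.09-fold difference. Of the 12 myeloid markers 2 were above the floor in growth plate culture and 0 in articular culture.

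Proteases and their inhibitors were split. Of 31 measured, 5 were higher in growth plate by 2-fold or more and 5 lower, against 3.41% and 3.88% of all genes. Against the higher ADAMTS1, MMP13, A2M and TIMP3 stood the plasminogen activator PLAU, urokinase, at 979 in growth plate and 4205 in articular culture, a 4.29-fold difference. MMP1, interstitial collagenase, had 29.9 and 149, at least 4.12-fold lower. The collagenases MMP13 and MMP1 thus lay on opposite sides. TFPI2, an inhibitor of plasmin, had 356 and 1274, and F2R, the thrombin receptor, had 71.5 and 241. CTSK, the collagen-cutting cathepsin K, had 6548 and 5803 and MMP2, gelatinase A, 1606 and 2251, both under 2-fold apart.

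Growth factors differed ligand by ligand. Of the 26 BMP and TGF-beta pathway genes measured, 4 were higher in growth plate by 2-fold or more and 1 lower, against 3.41% and 3.88% of all genes, with a median of -0.03. TGFB2 had 1448 and 537, a 2.70-fold difference, and its 3 further probe sets had log2 differences of 2.01, 1.89 and 1.46. TGFB3 had 486 and 2329, a 4.79-fold difference the other way, with -0.42 on a dimmer probe set. TGFB1 had 391 and 212, a log2 difference of 0.88, so the 3 isoforms of this cytokine did not share a direction.

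BMP ligands and a decoy receptor of the family were higher in growth plate culture. BMP4, a bone morphogenetic protein, had 319.7 and 107, a 2.98-fold difference, and BMP7 had 97.0 and 24.6, at least 2.69-fold higher. BAMBI, a decoy receptor of the family, had 2130.2 and 527, a 4.04-fold difference, and a log2 difference of 1.96 on its other probe set. ID1 and ID3, targets of BMP signalling, had log2 differences of 0.16 and -0.08. BMPR1B, a BMP receptor of cartilage, had 104 and 207. The ligands were thus at least 2-fold apart while ID1 and ID3 were not. BMPR1B was lower in growth plate culture by just under 2-fold.

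WNT genes had 2 of 13 members higher by 2-fold or more and 1 lower, where 3.41% and 3.88% of all genes were. These are few members. SFRP1, a secreted antagonist of WNT ligands, had 58.8 and 453, a 7.71-fold difference, and -1.94 on its other probe set. TCF7L2, a partner of beta-catenin like LEF1, had 512 and 211, a 2.43-fold difference in favour of growth plate. Its other probe set had 132 and 143, and with the probe sets averaged the log2 difference of TCF7L2 was 0.58. TCF7L1, which mostly represses, had 203 and 389. CTNNB1, beta-catenin itself, had 7618 and 7397. LEF1 and SFRP1 were therefore apart while beta-catenin RNA was close. Of 17 FGF, IGF and growth hormone genes, 2 were lower by 2-fold or more and 0 higher, where 3.88% and 3.41% of all genes were. They were IGF2, an insulin-like growth factor, at 81.0 and 297, and IGFBP5, its binding protein, at 73.6 and 254. The 12 further probe sets of IGF2 disagreed among themselves, with log2 differences from -2.81 to 0.66, and averaged over probe sets IGF2 was at -0.61, under 2-fold. IGF1R, the receptor, had 309 and 187, a log2 difference of 0.73. Its other probe set had 412 and 125, a log2 difference of 1.72, and averaged over probe sets IGF1R was at 1.23, over 2-fold.

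Further genes at least 4-fold lower in growth plate culture had a range of roles. AKR1CL1, an aldo-keto reductase, had 15.1, under the floor, and 583, at least 16.1-fold lower. Its other probe sets lay at the floor on both arrays, and with probe sets averaged its log2 difference was -1.34. CDO1, which breaks down cysteine, had 1091 and 4835, a 4.43-fold difference. AQP3, a channel for water and glycerol, had 54.4 and 513, a 9.44-fold difference, and AQP3 signals of 115 and 116 at day 20 did not differ in that way. SYNM, an intermediate filament protein, had 244 and 1155, and MAP2, a microtubule protein, had 94.2 and 453. GEM, a small GTPase that acts on the cytoskeleton and calcium channels, had 238 and 1366, a 5.74-fold difference. ANGPTL4, an inhibitor of lipoprotein lipase induced by hypoxia and fatty acids, had 95.0 and 426, a 4.49-fold difference. MECOM, a zinc finger transcription factor, had 19.4 and 167, and PHEROC, a pheromone-binding secretoglobin, had 21.7 and 256.

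FNTA is a gene for which the choice of probe set sets the result. This subunit of protein farnesyltransferase had 1259 in growth plate and 9509 in articular culture, a 7.55-fold difference, whereas another probe set of the gene had 2628 and 2121. Of the 63 genes at least 4-fold apart, 15 had at least 2 probe sets above the floor. In 13 of these 15 all such probe sets had the same sign, and in 8 all were at least 2-fold apart. The exceptions in sign were FNTA and the uncharacterised locus LOC100623720.

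The hyaline cartilage matrix was close on the probe set used for each gene. Of 36 genes listed, only 9 were on the array. Of the 8 measured, 0 were at least 2-fold apart in either direction, where 7.29% of all genes were. For 8 genes a count of 0 is near that share. The median was 0.13. COL2A1, the main collagen of cartilage, had 1361 in growth plate and 1164 in articular culture. ACAN, the large cartilage proteoglycan aggrecan, had 12466 and 10781, and HAPLN1, the link protein that ties it to hyaluronan, had 13922 and 12888. COMP, a matrix protein that binds collagen fibrils, had 5098 and 6170.0. Another probe set of HAPLN1 had 8020 and 3726, a log2 difference of 1.11. On the probe sets used, the log2 differences of COL2A1, ACAN, HAPLN1 and COMP ran from -0.28 to 0.23. They were smaller than the pooled SD of 0.46 between probe sets of a gene. That SD does not measure how far cultures vary.

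Genes of DNA replication showed small differences of the same sign. On the probe set used for each gene, all 26 measured members had lower signals in growth plate culture. Their median was -0.59, and 53.02% of all genes were below 0. Further probe sets of replication genes went both ways, with 0.52 for CDC45 and -1.19 for POLE2. Only GINS3, a subunit of the replicative helicase complex, was at least 2-fold apart, at 70.8 and 158. PCNA, the sliding clamp of replication, had 1697 and 3319, a 1.96-fold difference, and MCM2, a helicase subunit, had 744 and 1433. With probe sets averaged the log2 difference of MCM2 was -0.32. Genes of the same pair of arrays are not independent observations. The median was -0.22 at day 20 and -0.19 in native tissue, and at day 10 it lay between -0.65 and -0.45 over the alternatives tried.

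Mitotic genes leaned the same way by less. Of 31 measured, 26 were below 0 and 5 above, where 53.02% of all genes were below 0, with a median of -0.35. HMMR, a spindle and hyaluronan-binding protein, was the only member at least 2-fold apart, at 43.0 and 107. In native tissue the median of the mitotic genes was 1.72, with 22 of 31 at least 2-fold higher in growth plate, where 12.9% of all genes were. SESN1, a p53 target that restrains growth signalling, had 482 and 163, a 2.96-fold difference towards growth plate. It was the only 1 of 17 measured growth arrest genes at least 2-fold apart, and its other probe set had 1.75. Ribosomal protein genes were below 0 in 51 of 54 cases, where 53.02% of all genes were. Their median was only -0.17, with 0 genes at least 2-fold apart.

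Metabolic and housekeeping groups lay near 0. The medians were -0.05 over 52 mitochondrial respiratory chain genes, 0.00 over 29 sterol and fatty acid genes, -0.03 over 49 secretory pathway genes and 0.04 over 38 glycolysis and hypoxia genes. Within the secretory group SERPINH1, the collagen chaperone HSP47, had 4436 and 2208, a 2.01-fold difference, and ASNS, asparagine synthetase, had 9023 and 3967, a 2.27-fold difference, both towards growth plate. HSPA5, the main chaperone of the endoplasmic reticulum, had 9157 and 8492. Among glycolysis and hypoxia genes GAPDH, LDHA and SLC2A1, 2 enzymes and a glucose transporter, had log2 differences of 0.10, 0.05 and 0.18.

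**Figure D3:**
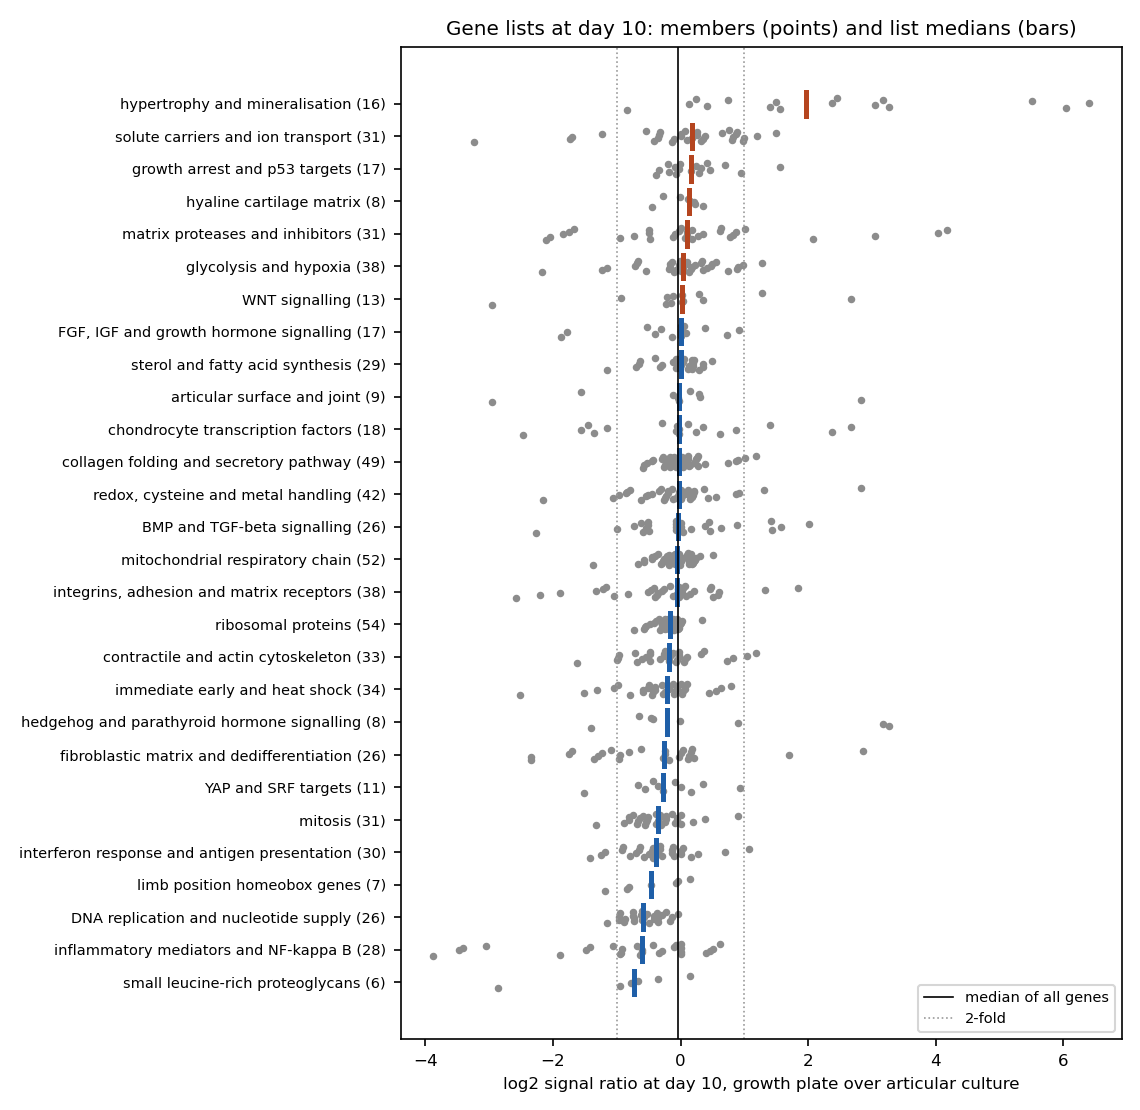
Median log2 difference, growth plate minus articular culture at day 10, of the measured members of each gene list. Grey points are the members, short vertical bars the list medians, dotted lines mark 2-fold and the solid line the median of all genes. The hypertrophy and mineralisation list has the highest median, 1.97, and the lists of small leucine-rich proteoglycans, inflammatory mediators and DNA replication have medians of -0.72, -0.61 and -0.59.

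The day 10 differences were set beside those of the other stages, which share no array with them. Of the 35 genes at least 4-fold higher at day 10, 18 were at least 2-fold higher at day 20, where 2.84% of all genes were, and 17 were under 2-fold apart. In native tissue 26 of the 35 were at least 2-fold higher, where 12.9% of all genes were, 8 were under 2-fold apart and TIMP3 was at least 2-fold lower. At both of these stages 15 were at least 2-fold higher. Of the 35, 3 had no articular array above the floor, which fixed their direction at all stages.

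The 28 lower genes had a different record. At day 20, 18 of the 28 were at least 2-fold lower, where 4.04% of all genes were, 9 were under 2-fold apart and PHEROC was higher by 2-fold or more. In native tissue 11 were at least 2-fold lower, where 7.88% of all genes were, 11 were under 2-fold apart and 6 were at least 2-fold higher. The medians of the 35 higher genes were 1.17 at day 20 and 2.63 in native tissue, and those of the 28 lower genes -1.62 and -0.55. Higher genes thus had the larger median in native tissue and lower genes at day 20, a difference between the sets that was not tested.

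Against native tissue of the same origin, the genes moved on different sides. Of the 35 higher genes, 14 had at least 2-fold higher signals in growth plate culture at day 10 than in native growth plate, and 11 in articular culture than in native articular cartilage. Among the 28 lower genes, 14 had at least 2-fold lower signals in growth plate culture than in native growth plate, and 13 had at least 2-fold higher signals in articular culture than in native articular cartilage. THBS2 did both, from 1903 to 515 in growth plate and from 154 to 2617 in articular samples. These steps share the day 10 arrays with the comparison that chose the genes, and are given as a description. The share of all genes that moved as far was not counted, so the counts are not read as particular to these genes.

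**Figure D4:**
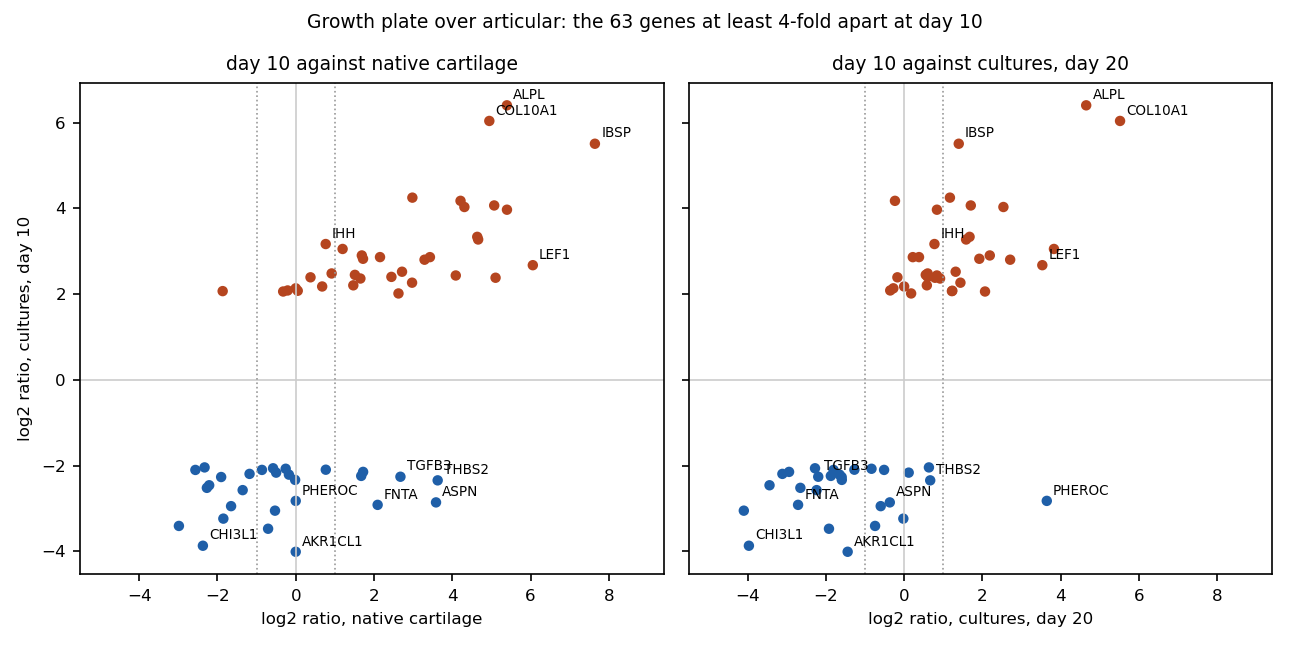
Log2 difference, growth plate minus articular, at day 10 (y axis) against that in native tissue (left, x axis) and at day 20 (right, x axis) for the 63 genes at least 4-fold apart at day 10. No gene of the 35 higher ones lies under -1 at day 20 and 1 of the 28 lower ones lies over 1, whereas 1 and 6 do so in native tissue.

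A linear model of tissue and day fitted with limma to the 4 cultured arrays gives the only test restricted to cultures. It describes the mean of both days and is no test of day 10 alone, and its 1 residual degree of freedom is the tissue-by-day interaction, to which a prior drawn from all genes added 12.3. Calls needed a Benjamini-Hochberg adjusted p below 0.05 along with a 2-fold difference. Growth plate cultures had 67 of 5473 genes (1.22%) called above articular cultures and 85 (1.55%) called below. Of the 63 genes at least 4-fold apart at day 10, 26 higher and 22 lower ones were among them, which is no independent check because the day 10 arrays enter the fit. ANGPT1 had a mean log2 difference over both days of 2.89 ± 0.42 (SE, limma adjusted p = 0.0016) and CHI3L1 of -3.92 ± 0.27 (limma adjusted p = 2.67e-06), each in the same direction on 2 of 2 days. CCL2 had -2.70 ± 0.34 (limma adjusted p = 0.00046), also on 2 of 2 days. These genes were picked for their day 10 ratios, which enter the fit. Their p-values and their direction at day 10 are therefore no independent check. The number of calls depended on the processing, with 6 higher and 7 lower when all 5598 genes entered the fit and 12 and 27 without an intensity trend.

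By list, the calls are to be read against 1.22% of all fitted genes called higher and 1.55% called lower. In the cultures 9 of 16 hypertrophy and mineralisation genes were called higher and 0 lower. Of 28 inflammatory genes 1 was called higher and 7 lower, of 26 fibroblastic matrix genes 1 and 4, of 31 proteases and inhibitors 5 and 4, and of 38 adhesion genes 1 and 4. IBSP, whose articular signal went from 309 at day 10 to 5958 at day 20, had a mean log2 difference of 3.45 ± 0.58 (SE, limma adjusted p = 0.00463), higher on 2 of 2 days. IBSP too was picked for its day 10 ratio, so this p-value is no independent check. The gap at day 10 was 45.5-fold and that at day 20 2.63-fold. For the hypertrophy and mineralisation list the median was 1.97 at day 10, 0.73 at day 20 and 1.65 in native tissue, with 11, 6 and 11 members at least 2-fold higher. Of all genes, 3.41%, 2.84% and 12.9% were that much higher at these stages. The fibroblastic matrix medians were -0.26, -0.04 and 0.00, and the inflammatory medians -0.61, -0.38 and -0.53.

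**Figure D5:**
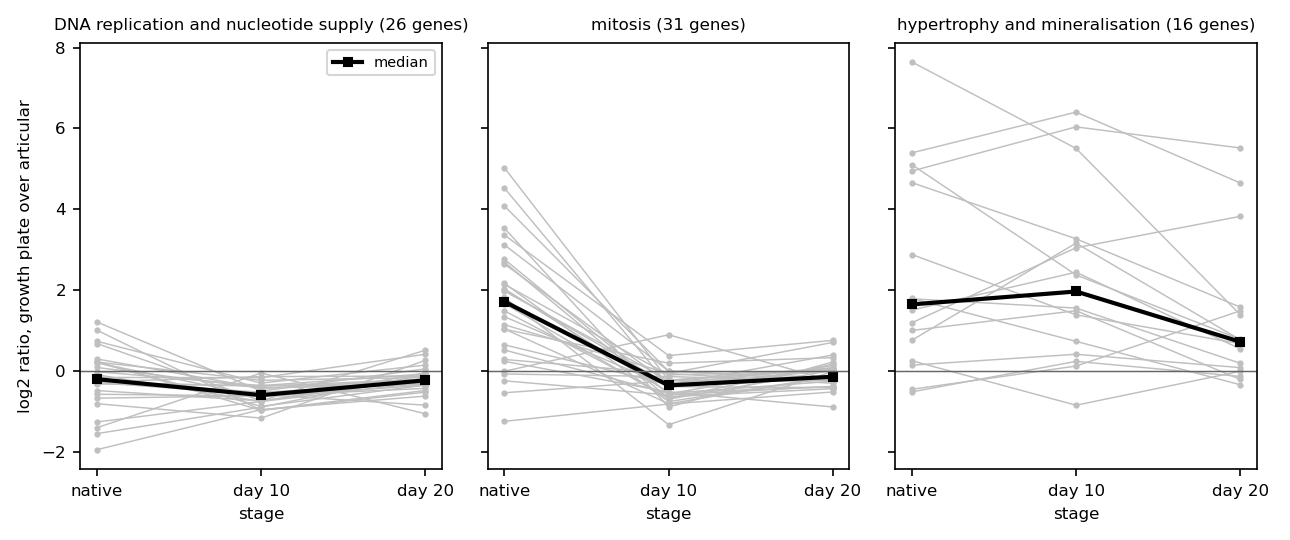
Log2 difference, growth plate minus articular, in native tissue, at day 10 and at day 20 for the DNA replication, mitosis and hypertrophy lists, with a grey line per gene and the list median in black. The hypertrophy and mineralisation median is 1.97 at day 10, while the mitosis median goes from 1.72 in native tissue to -0.35 at day 10 and -0.13 at day 20.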

How the data were processed

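Per the labels' protocols, 100 ng of total RNA per array was amplified and labelled with biotin in the Two-Cycle procedure for all 6 arrays. The authors deposited 1 linear signal intensity for each probe set and array. The submitters' processing notes name GCOS 1.4. Scaling target and detection calls are not given in the sources used here. The mean signal without the extremes was nearly the same on all arrays, so nothing was normalized again.

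Of 24123 probe sets, 124 controls were left out, and the floor of 36.1 is the 40th percentile of the other 23999. The platform annotation gave a single symbol for 10069 probe sets, several for 198 and none for 13732, and those with a single symbol were used. Of these, 9961 had a current gene ID in RefSeq. Each of 6765 genes took the probe set of highest mean log2 signal over the 6 arrays, 2261 having several, and the 5598 genes above the floor on at least 2 arrays were compared.

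The culture fit used limma 3.58.1 in R 4.3.3 with data.table (version 1.17.8), on the 5473 genes above the floor on at least 2 of the 4 cultured arrays, with an intensity trend. It was run on simulated data with independent noise of the same size for every gene. That setting lacks the floor and the signal-dependent spread of these data. It therefore does not show how far the calls hold here.

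Genes were named by rule, being the 20 with the largest day 10 ratio each way, up to 4 members of each of 28 gene lists and 14 marker lists, and the main cartilage genes. Further list members and genes at least 4-fold apart were named after their values were seen. Members and lists were chosen with earlier results of these data known. Alternatives were the normalization, floor, pseudocount, filter, probe set rule, size rule and model. The number of arrays limits the precision.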

Additional observations from a re-analysis of the deposited data

Results flagged for a closer look

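Of the 153 genes named by rule, 14 were at least 2-fold apart at day 10 and at least 2-fold apart in the opposite direction at another stage. Each stage has 1 array per tissue, so the difference between stages was not tested for any of them. Values are log2 differences, growth plate minus articular.

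Most of them were lower in growth plate culture at day 10 and higher in native growth plate. ASPN, the proteoglycan asporin, had -2.86 at day 10 and 3.58 in native tissue. THBS2, thrombospondin 2, had -2.35 and 3.63, and TGFB3, the growth factor, -2.26 and 2.68. THY1, a fibroblast surface marker, had -1.36 and 1.86. SYNM, an intermediate filament protein, had -2.24 and 1.67. CDO1, of cysteine breakdown, had -2.15 and 1.72. FNTA, a farnesyltransferase subunit, had -2.92 and 2.09, on the probe set that another of its probe sets does not share. SLC2A5, the fructose transporter, had -1.23 and 6.62, with signals of 2410.2 and 5642 at day 10 and 6221 and 63.5 in native tissue. HMMR, of the spindle, had -1.32 and 1.83. PTHLH, whose growth plate signal at day 10 and native articular signal lay under the floor, had -1.40 and 1.04.

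Among genes named after their values were seen, 3 met the same description. TIMP3, a metalloprotease inhibitor, had 2.07 at day 10 and -1.87 in native tissue. BMP7, a bone morphogenetic protein, had 1.43 and -2.32, and F2R, the thrombin receptor, -1.75 and 2.62.

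The other 4 of the 14 lay on the opposite side at day 20. PHEROC, a secretoglobin, had -2.82 at day 10 and 3.65 at day 20. SLA-3, a class I antigen-presenting molecule, had -1.24 and 1.26. IER3, a stress response gene, had -1.31 and 1.10. BMP4 had 1.57 and -1.10, its articular signal being 107 at day 10 and 569.7 at day 20.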

How the results depend on the processing

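No paired analysis was possible because each condition had 1 array and no replicate number. Leaving out a replicate was not possible for the same reason. The 35 genes higher and 28 lower at a 4-fold rule became 191 and 217 at a 2-fold rule and 12 and 6 at 8-fold. They became 23 and 15 with the floor at the 60th percentile. The lower count was 43 with the floor at the 25th percentile and 17 when probe sets of a gene were averaged, and the higher count was 19 with all 6 arrays above the floor. Without the filter the lower count was 29, RGS5 being added. With quantile normalization 62 of the 63 genes were the same. The calls of the culture fit, 67 higher and 85 lower, depended on the processing far more. They were 12 and 27 without the intensity trend, 22 and 42 with quantile normalization, 10 and 16 with median centring, and 11 and 16 when probe sets were averaged. With a pseudocount of 32 the higher count was 38. In a fit to all 6 arrays by tissue and stage they were 2 and 1. In a fit to all 5598 genes, an alternative chosen after seeing the data, they were 6 and 7. The cause was not tested. The median of the hedgehog and parathyroid hormone list reversed to 0.44 with all 6 arrays above the floor, which leaves fewer genes. Of the list medians recomputed under the alternatives, 280 stayed within a tolerance of the pooled probe set SD of 0.46 divided by the square root of the list's size, 51 moved further and that 1 reversed. Of the differences of the 153 genes named by rule 796 stayed within that SD and 94 moved further. None of those at least 2-fold apart changed sign, while FASN, under 2-fold apart, went from -0.70 to 0.21 with probe sets averaged and LPL from 0.039 to -0.018 with median centring. Median centring moved the median of all genes from -0.03 to -0.09. Dim genes limit the comparison, since 117 genes lay at the floor on both day 10 arrays and could show no difference.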

Other observations

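Members of the transporter, limb position and antigen presentation lists were 2-fold apart at day 10 in shares to be read against 3.41% of all genes higher and 3.88% lower. Of 31 measured solute carriers and channels, 2 were higher in growth plate culture by 2-fold or more and 4 lower. SLC1A5, a glutamine transporter, had 3769.7 in growth plate and 1332 in articular culture, a 2.83-fold difference. AQP1, a water channel, had 117 and 391, a 3.33-fold difference the other way, but a log2 difference of -0.87 with probe sets averaged. Homeobox genes that record limb position were mostly close, with HOXD8 at 2185 and 1971 and HOXD10 at 381 and 400.1. HOXA9 had 1063 and 1861, and MEIS2, a cofactor of these factors, had 161 and 366, the only 1 of 7 at least 2-fold apart. With probe sets averaged MEIS2 was under 2-fold apart, at -0.59. Of 30 interferon and antigen presentation genes, 3 were at least 2-fold lower and 1 higher, with a median of -0.38. PSME1, a proteasome activator subunit, had 522 and 1185, a 2.27-fold difference, and SLA-DMB, of class II peptide loading, had 29.99, under the floor, and 96.5.

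Of the genes at least 4-fold apart at day 10, 9 were under 2-fold apart both at day 20 and in native tissue, 6 higher and 3 lower in growth plate culture. The higher ones were CYP1A1, IHH, LRRN3, RIMKLB, XIRP2 and ZDHHC14, and the lower ones ANGPTL4, LOC100623720 and SH2D3C. The floor hid part of the comparison. XIRP2 at day 20, with 33.9 and 11.4, and LRRN3 in native tissue, with 21.5 and 15.4, could show no difference. ZDHHC14 at day 20 had 21.0 in growth plate, under the floor, and 40.7 in articular culture. The share of all genes under 2-fold apart at both stages was not counted, so the differences are not read as limited to day 10. CYP1A1, a target of the aryl hydrocarbon receptor, had 367 in growth plate and 86.6 in articular culture at day 10. Of immediate early and heat shock genes, 4 of 34 were at least 2-fold lower and 0 higher in growth plate, against 3.88% and 3.41% of all genes. Among the 4 was EGR1, at 152 and 431, with -0.58 on another probe set above the floor. In the contractile group TAGLN2, a transgelin, had 525 and 1622, a 3.09-fold difference, while ACTA2, smooth muscle actin, had 14481 and 14768.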
